A study of Rattus norvegicus with 4 samples.

Results

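In the vehicle Olig2 peak list, 1759 of 4965 peaks (35.4%) overlapped no H3K27Ac peak, either in vehicle or after lysolecithin. These Olig2 sites without H3K27Ac were chosen by position alone: a vehicle Olig2 peak was taken when it shared no base with any peak of the vehicle H3K27Ac list or of the LPC H3K27Ac list. The other 3206 vehicle Olig2 peaks, which touched H3K27Ac in at least 1 condition, are called acetylated sites below. Since the H3K27Ac lists made this choice, the share of 35.4% describes the selection and is not a result.

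The data came from 4 chromatin immunoprecipitation sequencing (ChIP-seq) libraries of cultured rat brain oligodendrocytes: vehicle and LPC, each with an H3K27Ac and an Olig2 antibody. All cultures began as mixed glia, kept for 5 to 7 days with 15% FBS and for 2 days in B104 medium, from which precursors were isolated, grown with PDGF-AA at 10 ng/ml and bFGF at 20 ng/ml, and matured in medium holding 10 ng/ml ciliary neurotrophic factor and 15 nM of the thyroid hormone T3. The vehicle libraries are labelled only as vehicle, while the LPC libraries came from cells given lysolecithin (lysophosphatidylcholine, a detergent-like lipid that strips myelin) for 6 h. The dose is labelled 12.5 mM, and whether another unit was meant was not established. No genotype or strain is given, and the lists cannot show whether other glia remained in the cultures. There was 1 library per group and no replicate, so no p-value is given, and the 95% intervals below cover counting error over peaks only. Vehicle and LPC lists held 38902 and 38721 peaks for H3K27Ac, and 4965 and 3229 for Olig2. Read depth is unknown, so a missing peak may be one that fell slightly short of the caller's threshold.

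Olig2 is a basic helix-loop-helix transcription factor that binds short E-box sequences as a dimer and is required for the oligodendrocyte lineage, where it can activate or repress genes with different partners. H3K27Ac is an acetyl group on histone H3, placed mainly by the coactivators CBP and p300, and is read as a sign of active promoters and enhancers. Transcription factors are also found at regions without this mark, among them poised and repressed elements. Neither the DNA sequence under these sites nor the genes around them were analysed here, because an rn4 genome and annotation were not used, and the sites are therefore given by rn4 position.

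The Olig2 peaks without H3K27Ac were shorter than the acetylated ones. Their median length was 908 bp (quartiles 782 and 1058 bp, lowest 393 and highest 3947 bp), against 1170 bp (973 and 1452 bp) at acetylated sites. Sites on an H3K27Ac peak of both lists were the longest group, with a median of 1209 bp, and sites on H3K27Ac in vehicle alone or LPC alone lay between, at 1001 and 1012 bp. Of the shortest 20% of the vehicle Olig2 list (393 to 847 bp), 65.2% (95% interval 62.1 to 68.2) lacked H3K27Ac, and of the longest 20% (1403 to 5217 bp) 8.86% (7.17 to 10.8) did. A longer peak has more room to touch another peak by position alone, and the part of this in the difference was not tested.

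**Figure D1:**
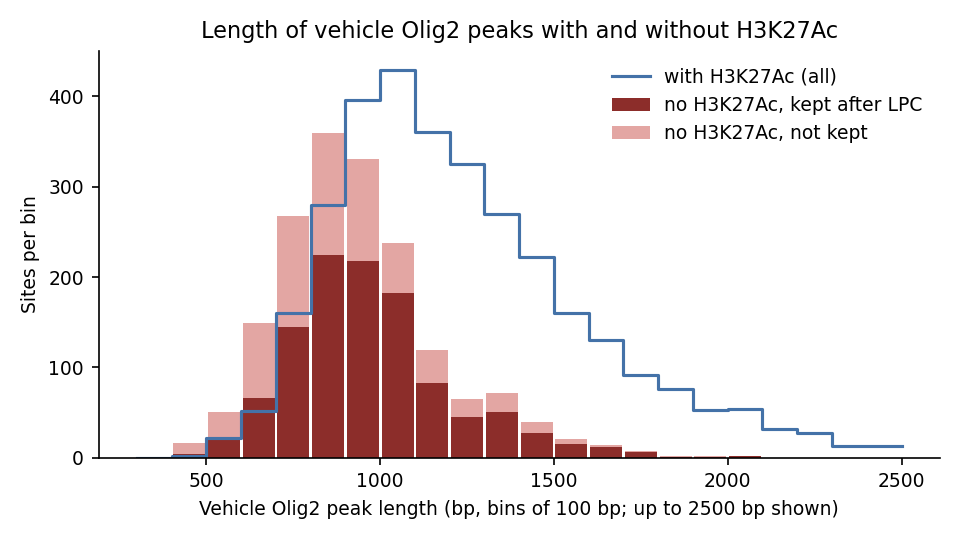
Histogram of vehicle Olig2 peak length in bins of 100 bp, up to 2500 bp. Stacked bars are sites without H3K27Ac, kept (dark) or not kept (light) in the LPC Olig2 list, and the line is all acetylated sites; the bars centre on a median of 908 bp and the line on 1170 bp.

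After LPC, Olig2 was still called at most of the sites without H3K27Ac. Of the 1759, 1106 (62.9%, 95% interval 60.6 to 65.1) overlapped an LPC Olig2 peak and are called kept, and 653 (37.1%) did not. The background is the 64.0% of all vehicle Olig2 peaks that were kept. Acetylated sites were kept in 64.7% (63.0 to 66.3), and the difference (without H3K27Ac minus acetylated) of -1.81 percentage points had an interval of -4.62 to 0.97, which includes 0. Sites on vehicle-alone H3K27Ac were kept in 63.4% (56.8 to 69.7), those on LPC-alone H3K27Ac in 62.9% (56.6 to 68.9) and those on both in 65.0% (63.1 to 66.7). Under the planned limit to H3K27Ac peaks of at least median length, the difference was -3.45 points (-6.11 to -0.774), within the main interval. With both Olig2 lists limited in that way, also as planned, it was -13.1 points (-18.2 to -8.01). That limit also removes short LPC Olig2 peaks. With only the vehicle Olig2 list limited, which was chosen after seeing the data, the difference was 2.44 points (-2.36 to 6.93). Lower occupancy after LPC and a lower yield of the LPC Olig2 library cannot be told apart.

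Peak length went with retention among the sites without H3K27Ac. Kept sites had a median vehicle length of 937 bp (quartiles 820 and 1080 bp) and sites not kept 858 bp (731 and 990 bp), so the lengths overlapped broadly. The vehicle list was cut into 5 length classes of equal size. In the shortest class, 51.7% (47.8 to 55.6) of the sites without H3K27Ac were kept, in the second 64.4% (60.0 to 68.7), and in the third 75.8% (70.9 to 80.3). The longest classes gave 69.2% (62.3 to 75.5) and 72.7% (62.2 to 81.7), with 201 and 88 sites behind them.

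Within classes of similar length, the sites without H3K27Ac were kept more often than acetylated sites in the middle of the range. Between 848 and 985 bp, 310 of 481 sites without H3K27Ac were kept, against 53.6% of 511 acetylated sites, a difference of 10.8 points (4.71 to 16.8). Between 986 and 1144 bp the shares were 75.8% of 339 and 64.8% of 656, a difference of 11.0 points (5.02 to 16.7). In the other classes the differences were -0.18 points (-6.65 to 6.31) for the shortest, -0.096 (-7.48 to 6.74) for the fourth and 0.90 (-9.59 to 9.65) for the longest. Weighting each class by its size in the whole vehicle list gave 66.8% for sites without H3K27Ac and 62.3% for acetylated sites, a difference of 4.50 points (1.27 to 7.72); the unweighted difference had the opposite sign because the sites without H3K27Ac are concentrated in the short classes. The weighting was chosen after the lists had been seen. Its direction turned when both Olig2 lists were limited to peaks at or above their own median length, which gave -7.53 points (-13.4 to -1.65). That limit also removes short LPC partners, and the kept sites without H3K27Ac had a median LPC length of 870 bp, below the LPC list's median of 1001 bp. With only the vehicle list limited, the difference was 3.82 points (-1.40 to 9.05). Cut into 10 classes, the vehicle list gave uneven differences in the middle of the range. They were 16.5 points (7.73 to 24.8) at 848 to 915 bp and 5.57 (-3.09 to 14.0) at 916 to 985 bp. At 986 to 1058 and 1059 to 1144 bp they were 9.58 (1.44 to 17.2) and 11.5 (2.46 to 19.8).

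**Figure D2:**
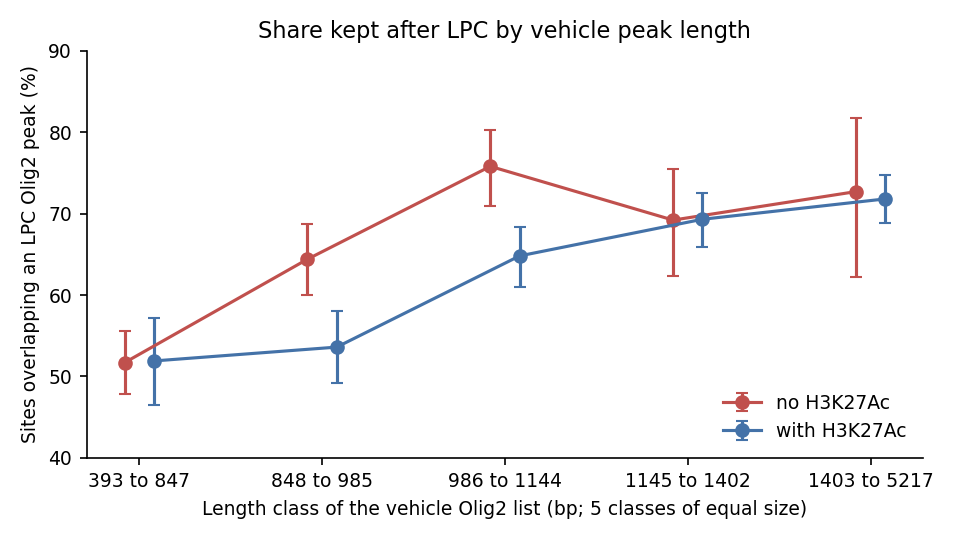
Share of vehicle Olig2 sites that overlapped an LPC Olig2 peak (percent, axis from 40 to 90), by class of vehicle peak length in bp, for sites without and with H3K27Ac; bars are exact 95% binomial intervals. The groups stand apart in the second and the third class (64.4% against 53.6%, and 75.8% against 64.8%) and overlap in the others.

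Where a site without H3K27Ac was kept, its LPC peak was typically somewhat shorter than its vehicle peak, much as at acetylated sites. Of the 1106 kept sites, 1105 had a single LPC partner. Over those, LPC length divided by vehicle length had a median of 0.924 (quartiles 0.836 and 1.02), against 0.935 (0.839 and 1.02) at 2071 acetylated sites. The peak was longer in LPC than in vehicle at 29.7% and 29.9% of them, respectively. The peak midpoint moved by a median of 50.5 bp at sites without H3K27Ac and 56.5 bp at acetylated sites. Kept peaks overlap by definition, which bounds how far the midpoint can move. Moves of over 100 bp were seen in 19.6% and 28.1%, a difference of -8.46 points (-11.4 to -5.37), but acetylated peaks were also longer, and the part of length in this was not tested.

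The LPC Olig2 peaks at the 1106 kept sites touched no H3K27Ac peak of either list. The selection largely fixes this, since 481 of the 1105 single partners lay wholly inside the vehicle peak and only 5 of the 1759 sites were within 100 bp of H3K27Ac. Applying the same rule to the LPC Olig2 list gave 1122 of 3229 peaks without H3K27Ac (34.7%, 33.1 to 36.4), a difference from the vehicle share of -0.68 points (-2.79 to 1.44). Their median length was 871 bp, against 1110 bp for LPC Olig2 peaks with H3K27Ac.

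Only 13 of those 1122 LPC peaks (1.16%, 0.618 to 1.97) overlapped no vehicle Olig2 peak, and among the LPC Olig2 peaks with H3K27Ac 35 of 2107 (1.66%, 1.16 to 2.30) did not. As background, 98.5% of all LPC Olig2 peaks overlapped a vehicle peak. The longest of the 13 lay on chromosome 16 (77827740 to 77828968, 1229 bp), 56.6 kb from H3K27Ac in both lists. The next, on chromosome 10 (76957680 to 76958860, 1181 bp), was 1.29 kb from a vehicle H3K27Ac peak and 14.0 kb from an LPC one. The third, on chromosome 3 (169144510 to 169145572, 1063 bp), was 14.6 kb from vehicle H3K27Ac. The fourth, on chromosome 9 (81504423 to 81505427, 1005 bp), was 61.0 kb away, and the fifth, on chromosome 5 (135452658 to 135453638, 981 bp), 90.3 kb. All 5 were over 60 kb from the nearest vehicle Olig2 peak, the closest at 62.4 kb.

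Most sites without H3K27Ac lay over 12.5 kb from any H3K27Ac peak. These distances continue the rule and are a description, with no background distance beside them. The gap to the nearest H3K27Ac peak of either list had a median of 32.5 kb, with quartiles at 10.7 and 85.1 kb. Only 48 sites (2.73%) were within 1 kb, while 369 (95% interval 19.1% to 23.0%) were over 100 kb away and 24 over 500 kb. An H3K27Ac peak of either list lay within 12.5 kb of 481 sites (27.3%, 25.3 to 29.5), called near below, and the other 1278 (72.7%) are called isolated. Near and isolated sites had almost the same length, with medians of 906 and 910 bp. At the edge of the rule, the members closest to H3K27Ac lay 4 bp from a vehicle peak on chromosome 10 (78131208 to 78132322), 37 bp on chromosome 13 (65737241 to 65738141) and 42 bp on chromosome 2 (6443004 to 6443594). Just beyond the rule, sites on chromosome 1 (5114716 to 5115198), chromosome 2 (209785116 to 209785760) and chromosome 2 again (191301661 to 191303425) had 5, 21 and 50 bp inside LPC H3K27Ac peaks.

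Retention was compared between near and isolated sites and across bins of distance. Isolated sites were kept in 62.4% (59.7 to 65.1) and near sites in 64.0% (59.6 to 68.3), a difference of -1.59 points (-6.55 to 3.51). By distance, the share ran from 58.3% (43.2 to 72.4) within 1 kb to 67.2% (61.1 to 72.9) between 5 and 12.5 kb, and to 54.2% (32.8 to 74.4) among the 24 sites beyond 500 kb. The intervals of the distance bins overlap. The sign of the small difference was not stable, since counting only sites within 5 kb as near gave 2.79 points (-3.84 to 9.72), and keeping only H3K27Ac peaks of at least median length gave 3.83 points (-1.10 to 8.88). Within classes of length, the difference ran from -16.7 points (-28.1 to -2.71) in the fourth class, with 58 near sites, to 10.2 points (-9.63 to 32.3) in the longest.

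**Figure D3:**
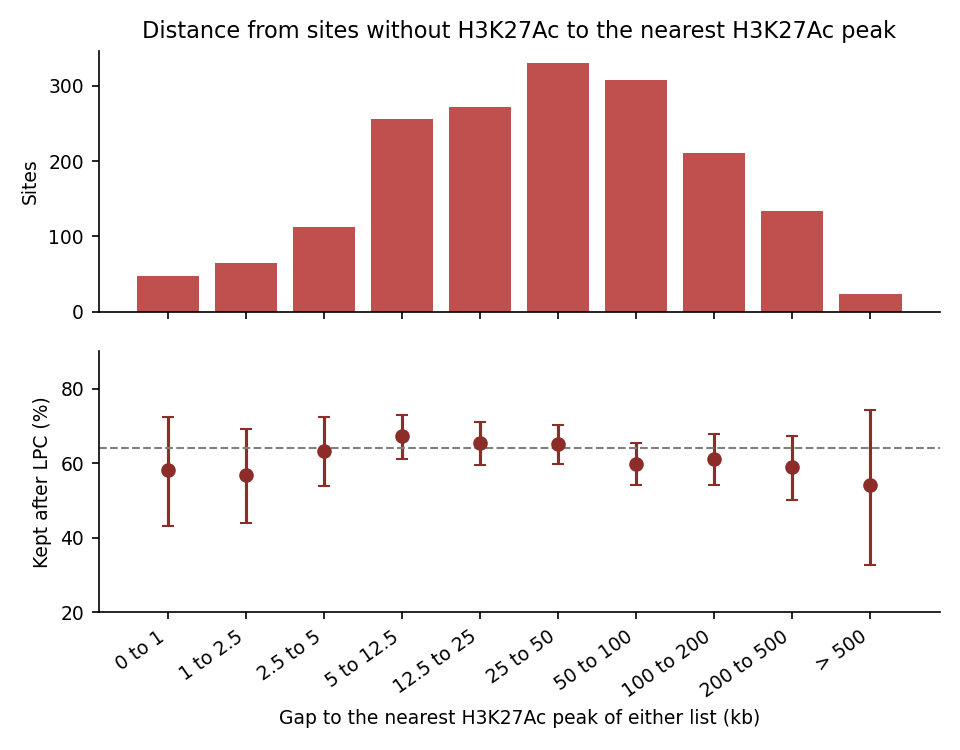
Upper panel, number of Olig2 sites without H3K27Ac by gap in kb to the nearest H3K27Ac peak of either list; lower panel, share kept after LPC (percent, axis from 20 to 90) with exact 95% binomial intervals. The dashed line is the 64.0% kept over all vehicle Olig2 peaks, and each interval reaches it.

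Some near sites were flanked on both sides. An H3K27Ac peak of either list within 12.5 kb lay on both sides of 71 sites (4.04%), and on a single side of 410 (23.3%). The lists were pooled for this, so the flanks of a site may come from different conditions. Of the 71, 37 were kept (52.1%, 39.9 to 64.1), against 66.1% (61.3 to 70.7) of the 410, a difference of -14.0 points (-26.2 to -1.82). Against the isolated sites the difference was -10.3 points (-22.1 to 1.20). The split by sides was made after the lists had been seen.

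Nearness to acetylation was compared between the lists of both conditions. Of the 481 near sites, 339 were within 12.5 kb of H3K27Ac in both lists, 84 in the LPC list alone and 58 in the vehicle list alone. Shares kept in these groups were 63.1% (57.7 to 68.3), 65.5% (54.3 to 75.5) and 67.2% (53.7 to 79.0). The nearest LPC H3K27Ac peak was closer than the nearest vehicle one at 1122 sites (63.8%), farther at 633 (36.0%) and equally far at 4. LPC H3K27Ac peaks cover 1.21 times the length that vehicle ones do, and the part of that in the nearer LPC borders was not tested. The LPC peak was closer at 65.1% of kept and 61.6% of not kept sites, a difference of 3.54 points (-1.10 to 8.22).

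Around the sites without H3K27Ac, the density of acetylation was level from 5 to 100 kb. Nearer the midpoint it fell, from 1.24% of bases in vehicle H3K27Ac peaks at 4 to 5 kb to 0.03% within 0.5 kb. The rule forces the absence of H3K27Ac over the Olig2 peak itself, and its part in the fall beyond that peak was not tested. In distance bins from 5 to 100 kb, the share of bases inside H3K27Ac peaks stayed between 1.32% and 1.64% for the vehicle list and between 1.62% and 1.98% for the LPC list. Around acetylated sites it fell from 6.61% at 5 to 7.5 kb to 2.87% at 75 to 100 kb for vehicle peaks, and from 7.44% to 3.39% for LPC peaks. Between 12.5 and 100 kb from the midpoint, beyond the distance used to split the sites, H3K27Ac peaks covered a mean of 2.71 kb in vehicle and 3.30 kb in LPC around sites without H3K27Ac, and 6.19 and 7.30 kb around acetylated sites. Both groups were defined by H3K27Ac itself, so this contrast is a description. The ratio (LPC over vehicle) was 1.22 and 1.18, beside 1.21 for the whole lists.

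**Figure D4:**
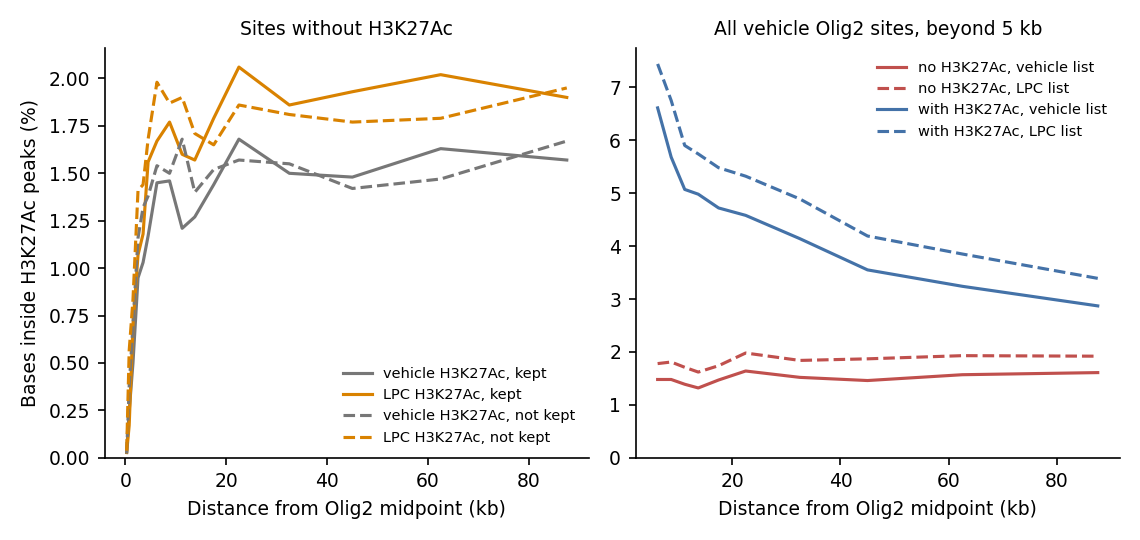
Share of bases inside H3K27Ac peaks (percent) by distance in kb from the Olig2 midpoint. Left, sites without H3K27Ac, kept (solid) and not kept (dashed), for the vehicle (grey) and LPC (orange) lists; right, sites without (red) and with (blue) H3K27Ac beyond 5 kb, where the blue vehicle line falls from 6.61% to 2.87% and the red vehicle line ends at 1.61%.

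The surroundings of kept and not kept sites were compared close by and farther out. Within 12.5 kb, H3K27Ac peaks covered a mean of 0.282 kb in vehicle and 0.344 kb in LPC around kept sites, and 0.331 and 0.401 kb around sites that were not kept. From 12.5 to 100 kb, the length covered was greater in LPC around 59.7% of the kept and 54.4% of the not kept sites, a difference of 5.31 points (0.531 to 10.1). It was greater in vehicle around 16.8% and 19.4%. In that range 260 of the 1106 kept and 171 of the 653 not kept sites had no H3K27Ac of either list. Such sites cannot count as greater in LPC, and their part in the difference was not tested. The comparison was not among the planned ones. Mean coverage in that range was 2.72 kb in vehicle and 3.37 kb in LPC around kept sites. Around sites that were not kept it was 2.70 and 3.20 kb. Within 12.5 kb, the length covered was greater in LPC around 18.2% of the sites in both groups.

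The H3K27Ac peaks nearest to these sites were condition-only more often than other H3K27Ac peaks. In the vehicle list, where 14.7% of all H3K27Ac peaks overlapped no LPC peak, 22.9% of the 1570 peaks that were nearest to a site without H3K27Ac were vehicle-only, against 14.4% of the rest, a difference of 8.51 points (6.47 to 10.7). In the LPC list, where the background is 25.3%, 32.2% of 1586 such nearest peaks were LPC-only, 7.13 points more than among the rest (4.84 to 9.51). The nearest peaks were also short, with medians over sites of 609 bp (vehicle list) and 763 bp (LPC list), beside 674 and 823 bp for all peaks of those lists. The sites were chosen by these same H3K27Ac lists, and the rest include peaks under acetylated sites. These contrasts are therefore a description, and the part of length in them was not tested.

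Sites without H3K27Ac were also more scattered among Olig2 peaks. Another vehicle Olig2 peak lay within 12.5 kb of 130 of them (7.39%, 6.21 to 8.71) and of 15.5% (14.2 to 16.8) of acetylated sites, a difference of -8.08 points (-9.80 to -6.29). The median gap to the nearest vehicle Olig2 peak was 140 kb, against 84.8 kb. For 64 of the 130 (49.2%, 40.4 to 58.1) the neighbour was itself acetylated, beside 64.6% of all vehicle Olig2 peaks. Groups of neighbouring sites without H3K27Ac never exceeded 2 members at this distance. There were 33 such pairs, of which 18 had both members kept, 10 had 1 kept and 5 had neither. The share kept over all 1759 sites was 62.9%, and whether members of a pair went together was not tested. The pair of shortest span, 1.76 kb, lay on chromosome 9 (4853507 to 4855266). Both its peaks, 581 and 719 bp long in vehicle, were kept at 658 and 810 bp. On chromosome 17 (7100514 to 7102398) the 753 bp peak was kept at 578 bp and the 872 bp peak was not. On chromosome 4 (30772423 to 30774471) the peaks were 56 bp apart and 203 kb from H3K27Ac, and only the 1095 bp one was kept, at 1030 bp.

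One site stood well apart in length. The peak on chromosome 2 (1283810 to 1287756) was 3947 bp long in vehicle and, at 3422 bp after LPC, kept 86.7% of that length. It lay 166 kb from vehicle and 106 kb from LPC H3K27Ac. The next longest kept site, on chromosome 3 (105252977 to 105255075), measured 2099 bp in vehicle and less after LPC, 1001 bp. It was 28.0 kb from the nearest vehicle H3K27Ac peak and 1.14 kb from the nearest LPC one. The third, on chromosome 13 (37856830 to 37858864), measured 2035 bp in vehicle and 2013 bp after LPC. The others, on chromosome 3 (89680874 to 89682775) and chromosome 8 (121736758 to 121738631), had vehicle lengths of 1902 and 1874 bp and LPC lengths of 1737 and 1877 bp. These 3 sites lay at least 39.2 kb from acetylation in both lists.

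Length alone did not secure a place in the LPC list. The longest site that was not kept, on chromosome 5 (50262123 to 50264043), measured 1921 bp, longer than 95.5% of the vehicle list counted with ties. It lay 65.8 kb from vehicle and 65.7 kb from LPC H3K27Ac. On chromosome 17 (26611081 to 26612966) a peak of 1886 bp was also not kept. The third, on chromosome 11 (78439641 to 78441403, 1763 bp), had H3K27Ac 59.1 kb away in vehicle and 2.33 kb away in LPC. The sites on chromosome 4 (154369255 to 154370945, 1691 bp) and chromosome 1 (229439745 to 229441402, 1658 bp) lay 59.3 and 28.8 kb from vehicle H3K27Ac.

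The sites most remote from acetylation were short peaks, and some were still kept. The most distant lay on chromosome 5 (53394310 to 53395095), 1528 kb from H3K27Ac in both lists, and its 786 bp peak was called again after LPC with 564 bp. On the same chromosome, the peak at 52846634 to 52847476 (843 bp) was 981 kb from acetylation and not kept, and the one at 45595874 to 45596359 (486 bp in vehicle, 649 bp in LPC) was 867 kb away and kept. The sites on chromosome 9 (50807277 to 50808126, 850 bp) and chromosome 14 (26417744 to 26418451, 708 bp), 1359 and 892 kb from vehicle H3K27Ac, were not kept. Over all 24 sites beyond 500 kb, the median length was 818 bp.

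Sites without H3K27Ac were found on all 20 autosomes and X. Their share of the vehicle Olig2 peaks ran from 30.4% (22.0 to 39.8) on chromosome 20 to 43.0% (37.2 to 49.0) on chromosome 6 among the autosomes, and was 53.2% (38.1 to 67.9) on X, where 25 of 47 Olig2 peaks lacked the mark. These shares describe the selection by chromosome and were not compared further. X held 767 vehicle and 985 LPC H3K27Ac peaks, and its median gap from these sites to acetylation was 74.8 kb, the largest of the 21 chromosomes. The share kept ran from 54.3% (41.9 to 66.3) on chromosome 14 to 74.5% (59.7 to 86.1) on chromosome 16, and these intervals overlap.

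**Figure D5:**
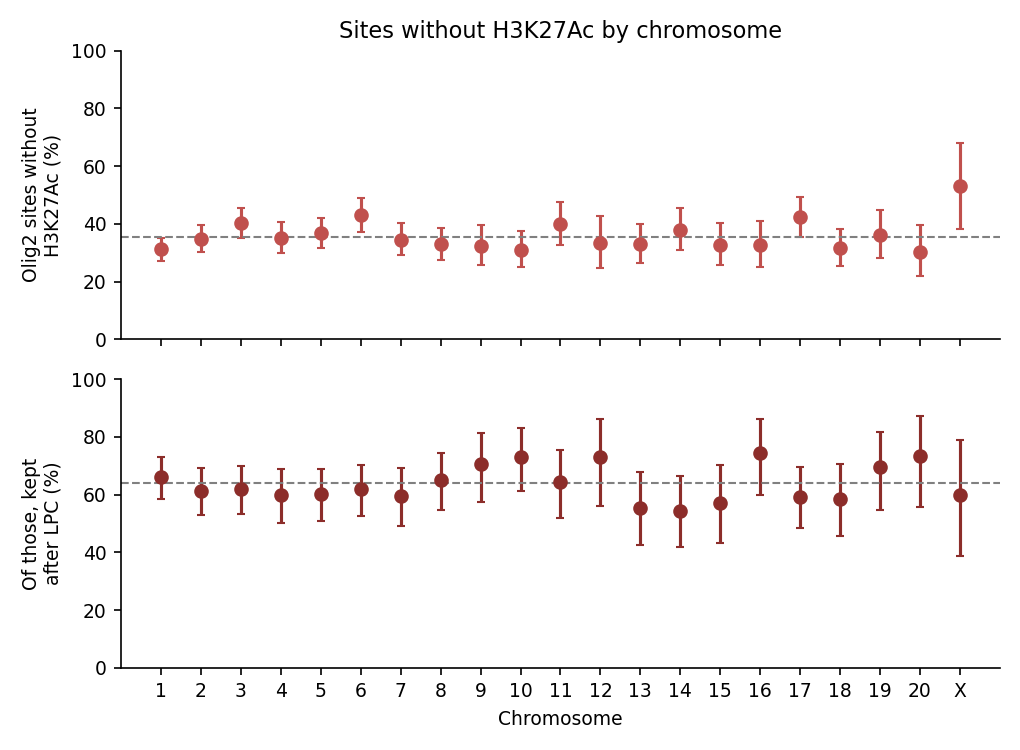
By chromosome, the share of vehicle Olig2 peaks without H3K27Ac (upper, percent) and the share of those kept after LPC (lower, percent), with exact 95% binomial intervals; dashed lines are 35.4% and 64.0%, the values over the whole vehicle list. X is highest in the upper panel at 53.2%, with 47 Olig2 peaks behind it.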

How the data were processed

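For each library the authors deposited a list of peak positions (3 columns), without scores, heights or counts. The submitters' processing notes name MACS 1.4.2 and the rat build rn4, and the sources used here do not give the aligner, threshold, control library or depth. Libraries were run on a SOLiD sequencer, per the labels' protocols. Peaks overlapped when they shared at least 1 bp. The code (SciPy 1.17.1, pandas 2.3.3 and numpy 2.4.6, under Python 3.11.15) was tested on simulated lists, and differed from bedtools 2.31.1 by 0 sites. Shares carry exact Clopper-Pearson 95% intervals and differences Newcombe intervals, except the length-weighted difference, which has a normal interval. All treat peaks as independent, although neighbours are not, and none is adjusted for the number of comparisons. Positions are 1-based on rn4. Named sites were the 5 longest kept and not kept, the 5 farthest from H3K27Ac and the 3 on each side of the rule's edge. Also named were the 3 groups of shortest span and the 5 longest LPC-only peaks. The members, lists and rules were chosen with earlier results of these data known. Planned analyses of sequence and genes were not run because the gene and sequence tables at hand describe another rat assembly. Alternatives were other overlap rules, length limits (the lists have no score), autosomes and other distances.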

Additional observations from a re-analysis of the deposited data

How the results depend on the processing

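Of 58 alternative values for 9 results, 40 stayed within the main value's interval (for the number of sites, within 1.5 times). Limiting both Olig2 lists to their longer peaks left 442 sites. Their share kept was 43.7%, -13.1 points from acetylated sites and -7.53 points after weighting by length. The median length difference, -262 bp in the full lists, became -146 bp, the length ratio 0.937, and 16.2% of LPC Olig2 peaks lacked H3K27Ac. With the vehicle Olig2 list alone limited, 71.5% were kept, 2.44 points from acetylated sites. Limiting the H3K27Ac lists gave 18.8% near sites, 3.83 points between isolated and near sites, a length difference of -302 bp and 47.0% of LPC peaks without H3K27Ac. Overlap of at least 50% of the shorter peak gave 30.0% near sites and 36.5% of LPC peaks, and the vehicle H3K27Ac list alone 39.7% of LPC peaks. Near sites made up 12.8% at 5 kb and 42.8% at 25 kb, by construction. The weighting, the limit on the vehicle Olig2 list alone and the vehicle H3K27Ac list for LPC peaks were chosen after seeing the data. No paired analysis was possible because each group has 1 library, and no library could be left out. Without depths or scores, peak presence cannot be turned into signal.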

Other observations

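Neighbouring Olig2 peaks offered a further description of the sites without H3K27Ac. For 717 of them (40.8%) another vehicle Olig2 peak lay within 100 kb. Where that nearest neighbour was kept after LPC, 305 of 472 sites were kept (64.6%, 95% interval 60.1 to 68.9), and where it was not, 141 of 245 were (57.6%, 51.1 to 63.8). The difference of 7.07 points had an interval of -0.40 to 14.6, which includes 0. Sites with an Olig2 neighbour within 12.5 kb were kept in 66.9% (58.1 to 74.9) and those without one in 62.6% (60.2 to 64.9).

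Around 373 of the 1759 sites, no H3K27Ac peak of either list lay within 100 kb of the midpoint. Around 99 sites that window held LPC peaks alone, and around 63 it held vehicle peaks alone. The nearest vehicle H3K27Ac peak was vehicle-only for 25.1% of the sites that were not kept and for 21.6% of the kept ones, a difference of 3.51 points (-0.55 to 7.68).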
